A study of Mus musculus with 16 samples.

Results

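The Zfp genes described here are the protein-coding genes whose mouse symbol starts with Zfp and a number, leaving out Zfp42, and whose count averaged 100 or more unique molecular identifiers (UMIs) over the 8 input libraries, so that they were chosen by their input level. UMIs let each RNA fragment be counted as 1 molecule even when it was copied many times in amplification. Of 393 protein-coding Zfp rows among the 53379 genes counted, 256 met this level, and 13 of the 393 had no UMI in any library. Just inside the limit were Zfp119a with a mean of 103.6 input UMIs and Zfp235 with 104.1, and just outside it were Zfp46 with 97.0 and Zfp947 with 95.5. Input levels are given as a description only.

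RNA was collected from male mouse embryonic stem cells (mESC) kept pluripotent on gelatin with LIF, the MEK inhibitor PD0325901 and the GSK3 inhibitor CHIR99021. All samples came from these cells, for which the labels give neither a line name nor a genetic change. Cells were crosslinked with UV light (UV-RIP), which joins protein to RNA in direct contact, or with formaldehyde (fRIP), which also fixes RNA held near a protein through other molecules, and Sox2 was immunoprecipitated (IP) with a magnetic bead-bound antibody. For each crosslinker there were 4 IP libraries and 4 input libraries of ribosome-depleted total RNA, numbered as replicates 3 to 6, with IP and input of a number taken from the same lysate. No library made with a control antibody was analysed here, so a ratio of IP to input compares RNA in the pull-down with RNA in the lysate and does not separate RNA bound by Sox2 from RNA held by the beads.

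Most Zfp proteins carry fingers in which a pair of cysteines and a pair of histidines hold a zinc ion, and a row of such fingers reads a DNA sequence. Neighbouring fingers are joined by a short conserved linker, threonine-glycine-glutamate-lysine-proline in its usual form. Many members of the family also carry a KRAB box, which recruits the corepressor Trim28 and with it the histone methyltransferase Setdb1, and in mESC these KRAB proteins are known for silencing endogenous retroviruses and keeping imprinted loci methylated. The genes arose by repeated duplication, so that many sit in clusters of close copies.

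The linker shows how alike these transcripts are and how they differ in base composition, which recurs in the results below. It is printed for those of the 3 members most depleted in UV-RIP and the 3 most enriched in fRIP that hold it, as coding sequence of 30 bases read 5′ to 3′ from the GENCODE vM21 transcripts, with the 5 linker codons in capitals. On GRCm38 the stretches lie on the minus strand, at chr4:147613135-147613164 in exon 5 of 5 (Zfp979), chr4:147675314-147675343 in exon 4 of 4 (Zfp534), chr17:23176262-23176291 in exon 4 of 4 (Zfp40), chr7:6132960-6132989 in exon 3 of 3 (Zfp787) and chr4:128777413-128777442 in exon 7 of 9 (Zfp362), all of them coding.
Zfp979: catACAGGAGAGAAACCTtacaaatgcagt
Zfp534: catACAGGAGAGAAACCTtacaaatgcagt
Zfp40: catACTGGAGAGAAACCTtacaaatgcagt
Zfp787: cacACAGGCGAGCGGCCCaatgcctgtacc
Zfp362: cacACAGGCGACAGACCAtacaagtgcccg
The stretches of Zfp979 and Zfp534 are identical. The coding sequence holds 35.1% GC in Zfp979, 35.5% in Zfp534 and 36.4% in Zfp40, against 65.6% in Zfp787 and 60.9% in Zfp362. Zfp423, the member most enriched in fRIP, has no match to the linker searched, which was threonine and glycine, then glutamate, aspartate or glutamine, then lysine or arginine, then proline. Of the 256 members, 201 hold at least 1 such linker. Across these 201 the UV-RIP log2 fold change of IP over input ran with the GC of the linker codons alone (Spearman rho 0.49). With the GC of the whole coding sequence rho was 0.63. Both values are given as a description over genes of one family, which are not independent.

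Copies this close also limit what can be counted, because reads that did not map uniquely were discarded. Transcripts of the members were therefore cut into windows of 34 bases and searched for in the transcripts of other genes. In 83 members no window was shared, the median member shared 0.929% of its windows, and 19 members shared 50% or more. The most widespread stretch that holds a whole linker is shown with the linker codons in capitals, since it lies in transcripts of 52 genes, among them the members Zfp931, Zfp970 and Zfp971.
Shared stretch: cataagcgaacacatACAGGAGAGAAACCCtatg
In Zfp534 82.6% of windows were shared, most often with Zfp987, and in Zfp979 30.3% were, so UMIs of these genes may be incomplete or split between copies. In Zfp40 3.59% of windows were shared, and in Zfp770, Zfp787 and Zfp362 none were.

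Over the family, the mean input ranged from 103.6 to 8039 UMIs, with a median of 364.3. The 10 highest members held 26.8% of the family's input UMIs. Per kilobase of gene body, which includes introns, Zfp57 had the highest input level at 40.9 CPM, the UMIs of a gene scaled to the same total in every library, ahead of Zfp207 at 17.7 and Zfp553 at 17. The lowest levels per kilobase were those of Zfp697 at 0.0221, Zfp385b at 0.0309 and Zfp536 at 0.0452, all with gene bodies above 300 kb. By pattern searches of the longest annotated coding sequence, the number of fingers of the cysteine and histidine type ran from 0 to 36 with a median of 10, and 102 of 256 members held the KRAB box pattern. The KRAB search is strict: it finds none in Zfp57, a known KRAB protein. Chromosome 7 holds 54 members, chromosome 17 holds 36, chromosome 4 holds 22 and chromosome 13 holds 21.

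Libraries had 12456298 to 21211537 UMIs on genes, and the members held 1.34% to 1.70% of them. Pluripotency markers summed to 2060 to 4180 CPM in the inputs, with 7 of 8 detected, whereas markers of feeder fibroblasts, primitive endoderm, neural, mesoderm and trophectoderm cells summed to at most 9.32 CPM each. Sox2 itself is listed at 0 in all 16 libraries, so its own transcript cannot serve as a check. The ribosomal-RNA-like rows Gm26917 and Gm42418 took 20.5% to 24.7% of UMIs in the UV-RIP IP and 13.7% to 14% in its input, a difference that lowers the share left for all other genes in that IP.

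In UV-RIP, RNA of the Zfp family was lower in the Sox2 IP than in the input. None of the 256 members was enriched, meaning more than 1.5-fold above input at an adjusted p below 0.05, against 0.680% of all 22936 genes tested and 0.499% of protein-coding genes with 100 or more input UMIs (edgeR quasi-likelihood test with Benjamini-Hochberg adjustment over all genes). Without the fold limit 14 members passed upward, at an unadjusted p below 0.05 there were 15, none of them past 1.5-fold, and DESeq2 called 0 with the same scaling and 2 with median-of-ratios scaling. Depleted members, those more than 1.5-fold below input, numbered 46 (18%), against 5.53% of all genes and 6.19% of protein-coding genes with 100 or more input UMIs. All 46 were lower in 4 of 4 pairs of IP and input, which a call made on the same pairs makes likely.

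The shift reached beyond the members called but was uneven. The median log2 fold change of the members was −0.34, against −0.17 for all genes tested and −0.18 for protein-coding genes with 100 or more input UMIs, and 227 of 256 members lay below 0. By GC content of the transcript, the median was −0.54 in the lowest 86 members, −0.38 in the middle 84 and −0.08 in the highest 86, the last above that of all genes. In 174 members every IP library lay below every input library, or 68.0% of the family, against 25.0% of all genes and 46.8% of that protein-coding set. In 11 every IP library lay above (4.30%), against 4.93% and 8.85%. The 4 pairs gave medians of −0.37, −0.40, −0.30 and −0.31. The members held 1.38% ± 0.0442 of UMIs in the UV-RIP IP libraries and 1.67% ± 0.0238 in the inputs (SD over 4 libraries each), without overlap. Scaling set the number called: TMM scaling moved the median of all genes from −0.17 to 0.005 and left 10 members depleted, all among the 46 (Zfp182, Zfp40, Zfp534, Zfp770, Zfp820, Zfp941, Zfp948, Zfp979, Zfp982 and Zfp994), with 3 enriched (Zfp335, Zfp423 and Zfp787), and library sizes without Gm26917 and Gm42418 gave 12 and 2. The family's distance from all genes stayed at −0.17 under both. With a trend on the GC content of transcripts over all genes removed, that distance shrank to −0.066.

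Zfp979, a KRAB member at chr4:147611937-147642513, was the most depleted member in UV-RIP. It measured 60.9, 64.8, 63.8 and 66.1 CPM in the IP of replicates 3 to 6 and 122, 123, 125 and 120 in the input. The groups lay far apart, and the log2 fold change was −0.94 with a standard error of 0.04 (adjusted p = 3.52e-94, edgeR). The UV-RIP fit took each gene's spread from a trend over genes, so the size of p is not compared between crosslinkers. In fRIP it measured 54.8, 47.6, 20.9 and 42.5 CPM in the IP against 117, 73.3, 65.6 and 105 in the input. Every fRIP IP library was lower than every input library, although replicate 5 stood lowest in both, and here the fitted change was −1.16 with a standard error of 0.11 (adjusted p = 1.10e-08, edgeR). Its gene body overlaps Gm13155 on the same strand.

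Zfp534, its neighbour at chr4:147673502-147702553, gave 28.8, 27.9, 29.3 and 33.4 CPM in the UV-RIP IP and 56.8, 59.5, 49.0 and 60.4 in the input. The 4 IP libraries were all below the inputs, by a log2 fold change of −0.91 (adjusted p = 1.20e-62, edgeR). In fRIP the IP held 29.3, 20.5, 11.2 and 20.1 CPM against 62.3, 26.2, 34.7 and 53.1. These groups overlapped, since the IP of replicate 3 stood above the input of replicate 4, but each IP was below its own input, and the log2 fold change was −1.12 (adjusted p = 2.16e-07, edgeR).

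Outside that pair, Zfp40 on chromosome 17 (chr17:23173869-23193252) had 8.93, 7.66, 9.68 and 9.26 CPM in the UV-RIP IP against 16.4, 17.5, 16.8 and 15.6 in the input, a log2 fold change of −0.89 (adjusted p = 2.94e-25, edgeR). Zfp770 (chr2:114193461-114201469), a gene of 8.01 kb with no shared window and no overlapping gene, had 7.67, 8.0, 9.43 and 8.45 CPM against 14.9, 15.5, 14.5 and 14.5 in the input. Neither gene's UV-RIP groups came near overlap, and for Zfp770 the log2 fold change was −0.82 (adjusted p = 6.12e-20, edgeR). In fRIP they fell as well, by log2 fold changes of −1.02 and −1.06. Zfp820, a KRAB member of the chromosome 17 cluster, completes the 5 most depleted with −0.83 in UV-RIP and −0.64 in fRIP, or −0.44 in fRIP without replicate 5. With a trend on the GC content of transcripts over all genes removed, Zfp979, Zfp534, Zfp770 and Zfp820 had −0.57, −0.56, −0.57 and −0.51 in UV-RIP, all inside 1.5-fold, and Zfp820 had −0.36 in fRIP.

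**Figure D1:**
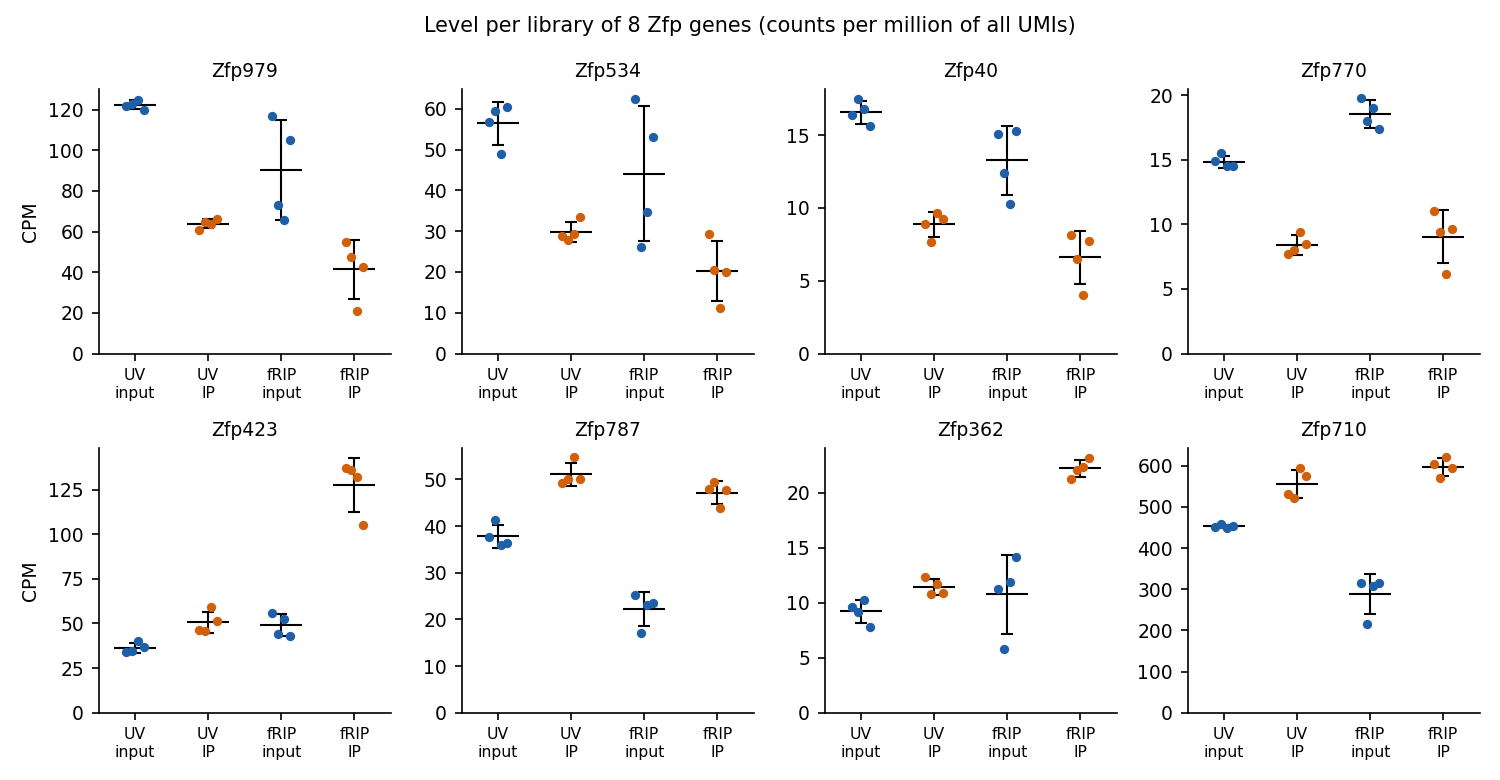
Level of 8 Zfp genes in each library, in CPM, with a separate axis from 0 for each gene. Points are libraries of replicates 3 to 6 from left to right (blue input, orange IP), and bars give the mean and SD of 4; the upper row holds genes depleted with both crosslinkers and the lower row genes enriched in fRIP, such as Zfp423 with 105 to 137 CPM in the fRIP IP and 43.2 to 55.8 in its input.

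In fRIP the family split. Enriched members numbered 17, or 6.64%, against 8.80% of all genes and 10.2% of protein-coding genes with 100 or more input UMIs. Depleted members numbered 36, or 14.1%, against 10.7% of all genes and 16.4% of that protein-coding set, so the share of depleted members was near the background. Each of the 17 was higher and each of the 36 lower in 4 of 4 pairs, which again follows largely from calls on these pairs. The median log2 fold change of −0.28 was below that of all genes, −0.03, and of the protein-coding set, −0.10, and 183 of 256 members lay below 0. The distance from all genes, −0.25, shrank to −0.095 with the transcript GC trend removed. Groups did not overlap in 89 members with the IP below the input, or 34.8%, against 19.2% of all genes and 35.1% of the protein-coding set, a share near that background. In 32 members the IP lay above the input, or 12.5%, against 15.3% and 22.5%. The pair medians were −0.23, −0.12, −0.34 and −0.26. As a share of the library the members held 1.54% ± 0.119 in the IP libraries and 1.51% ± 0.0941 in the inputs (SD over 4 libraries each), which overlap.

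Zfp423, a many-fingered factor of neural and fat-cell development that works with Smad proteins, was the most enriched member. Its IP libraries held 137, 136, 132 and 105 CPM in fRIP and its inputs 55.8, 44.2, 52.7 and 43.2. The groups were clearly apart, with a log2 fold change of 1.38 and a standard error of 0.08 (adjusted p = 2.33e-11, edgeR). In UV-RIP it measured 46.5, 45.8, 59.0 and 51.2 CPM in the IP and 33.8, 34.6, 40.0 and 36.9 in the input. All 4 UV-RIP IP libraries were again above the inputs, and its log2 fold change of 0.48 (adjusted p = 3.80e-18, edgeR) was below the 1.5-fold limit. It passed that limit under TMM scaling (0.66), without Gm26917 and Gm42418 (0.63) and with median-of-ratios scaling (0.65). The gene body (chr8:87661810-87959595) spans 297.8 kb and overlaps no other annotated gene.

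Zfp787 (chr7:6131491-6155997) had 47.9, 49.4, 43.8 and 47.7 CPM in the fRIP IP against 25.3, 17, 23.2 and 23.5 in the input, a log2 fold change of 1.09 (adjusted p = 5.64e-09, edgeR). Zfp362 (chr4:128773088-128806045) had 21.3, 22.1, 22.4 and 23.2 against 11.3, 5.76, 11.9 and 14.2, a log2 fold change of 1.08 (adjusted p = 5.63e-07, edgeR). The IP libraries of both genes lay in a narrow band above all inputs, and the input of replicate 4 was the lowest in each. Zfp710 (chr7:80024814-80094173), at higher levels, had 603, 570, 622 and 594 CPM against 315, 216, 308 and 314, a log2 fold change of 1.07 (adjusted p = 5.56e-10, edgeR). Zfp827, known for a part in telomere maintenance without telomerase, had a log2 fold change of 0.97 and means of 338 ± 30.7 and 174 ± 25.9 CPM (SD, n = 4 each). Of the 5, Zfp423 and Zfp362 overlap no other gene, while the other 3 share part of their span with a gene on the same strand.

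The member most depleted in fRIP lay on chromosome 13. Zfp729b (chr13:67589439-67609707) fell from 13.6, 16.2, 10.7 and 13.1 CPM in the input to 6.77, 5.69, 2.59 and 5.31 in the IP, a log2 fold change of −1.43 with a standard error of 0.13 (adjusted p = 8.52e-09, edgeR). It shares 43.1% of its windows, most with Gm49345, a gene that it also overlaps on the same strand. Zfp759 (chr13:67121660-67141787), of the same chromosome, fell from 8.0, 8.65, 6.37 and 9.47 to 5.08, 3.94, 2.92 and 3.71 CPM, a log2 fold change of −1.06 (adjusted p = 7.67e-07, edgeR). Both genes' fRIP groups were separate, and in UV-RIP they gave −0.51 and −0.21.

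Taken by crosslinker, 13 members were depleted with both, 33 in UV-RIP alone and 23 in fRIP alone, and none was depleted in UV-RIP and enriched in fRIP. The matching shares of all genes were not computed, so these counts describe the members alone. Under TMM scaling 10 members were depleted in UV-RIP, and 7 of the 13 were depleted with both (Zfp40, Zfp534, Zfp770, Zfp820, Zfp941, Zfp979 and Zfp994). Being called with one crosslinker and not the other is no test of a difference. Of the 13 depleted with both, 8 held the KRAB pattern (Zfp39, Zfp472, Zfp534, Zfp81, Zfp820, Zfp941, Zfp979 and Zfp994), and the others were Zfp207, Zfp280c, Zfp36l1, Zfp40 and Zfp770. Of the 17 enriched in fRIP, 15 lay above 0 in UV-RIP too, none past the 1.5-fold limit, and under TMM scaling 3 of the 17 were past it (Zfp335, Zfp423 and Zfp787). How many of all fRIP-enriched genes lay above 0 in UV-RIP was not computed, so this is not particular to the family.

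**Figure D2:**
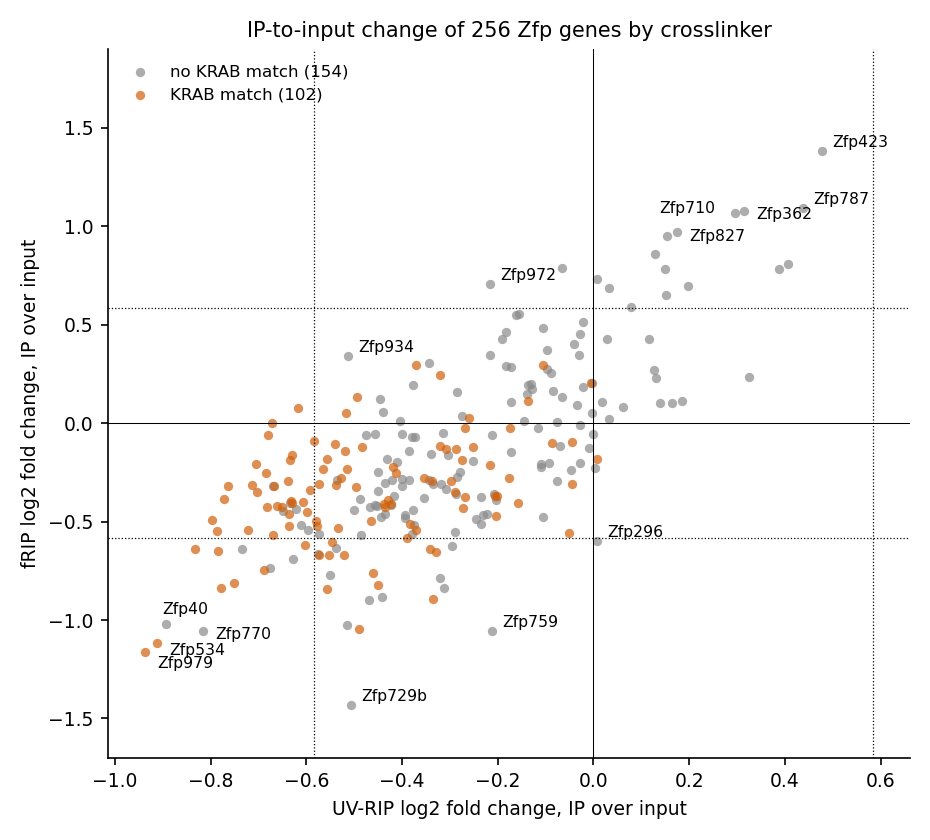
Log2 fold change of IP over input in UV-RIP (horizontal) and fRIP (vertical) for the 256 Zfp genes, with dotted lines at 1.5-fold in either direction; orange points are the 102 with a KRAB match and grey points the 154 without. The 17 genes above the upper line are all grey, and the lower left corner holds Zfp979, Zfp534, Zfp40 and Zfp770.

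The difference between the crosslinkers was tested directly by an interaction over all 16 libraries. The ratio of IP to input was higher in fRIP for 76 members, or 29.7%, against 18.6% of all genes and 32.9% of protein-coding genes with 100 or more input UMIs. It was higher in UV-RIP for 13 members, or 5.08%, against 8.07% and 16.8%. The median difference of the members, fRIP minus UV-RIP, was 0.12 on the log2 scale, between 0.10 for the protein-coding set and 0.15 for all genes. These counts moved with scaling, to 52 and 32 under TMM, where the median of all genes was 0.03. The second count also rested on single replicates, at 24 without replicate 4 and 8 without replicate 5.

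All 17 members enriched in fRIP were among the 76, but the fRIP value enters both calls, so this overlap is no separate result. The differences were 0.90 for Zfp423 (standard error 0.09, adjusted p = 1.42e-07, edgeR interaction), 0.92 for Zfp972 (adjusted p = 1.62e-05) and 0.86 for Zfp934 (adjusted p = 8.92e-05). Zfp972 had 10, 7.64, 7.02 and 10.6 CPM in the fRIP IP and 5.40, 4.22, 5.21 and 6.82 in the input, but 14, 14.6, 13.9 and 13.8 in the UV-RIP IP and 18, 15.5, 16.9 and 15 in the input. Its IP lay above the input in fRIP and, by a log2 fold change of −0.22, below it in UV-RIP (adjusted p = 0.0149, inside 1.5-fold), or −0.04 under TMM scaling with an adjusted p above 0.05, and 73.8% of its windows are shared, most with Gm14392. Zfp934, which shares 58.1% of its windows, moved from −0.51 in UV-RIP to 0.34 in fRIP.

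In the other direction stood Zfp729b with −0.92 (adjusted p = 1.59e-04), Zfp759 with −0.85 (adjusted p = 3.92e-04) and Zfp296 with −0.62 (adjusted p = 1.82e-03, all edgeR interaction). Zfp296, a factor expressed in mESC and the germ line, had 12.4, 16.3, 18.8 and 14.8 CPM in the fRIP IP against 20.3, 25.2, 26.9 and 21.7 in the input. In UV-RIP it had 10.5, 10.8, 8.89 and 10.4 against 7.31, 9.45, 10.8 and 12.4. The fRIP groups were apart and the UV-RIP groups overlapped, with log2 fold changes of −0.60 and 0.01. The fRIP value was inside 1.5-fold under TMM scaling (−0.55), without Gm26917 and Gm42418 (−0.58), with median-of-ratios scaling (−0.57), without replicate 3 (−0.57) and with a trend on gene length removed (−0.34). The inputs themselves stood apart, with none of the UV-RIP inputs reaching the fRIP ones.

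Members with the KRAB pattern made up most of those depleted in UV-RIP. Since the pattern is strict, those without it may still include KRAB proteins, as Zfp57 does. Of 102 members with the KRAB pattern 35 were depleted in UV-RIP (34.3%), against 11 of 154 without it (7.14%), and the medians were −0.52 and −0.23. Of all genes 5.53% were depleted in UV-RIP, and of the protein-coding set 6.19%. In fRIP 0 of 102 were enriched against 17 of 154 (11.0%), the latter near the 8.80% of all genes and 10.2% of the protein-coding set. Depleted members in fRIP numbered 19 (18.6%) and 17 (11%), near the 10.7% of all genes and 16.4% of the protein-coding set. Under TMM scaling the UV-RIP counts were 8 and 2. Transcripts with the KRAB pattern also held less GC, with a median of 40.5% over the longest coding transcript against 47.2%, and they shared more windows, with medians of 2.71% and 0.0755%.

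Members were divided by transcript GC into 3 groups, below, between and above 40.4% and 47.4%, a division made after the values had been seen. In the group of lowest GC 36 of 86 members were depleted in UV-RIP and none enriched in fRIP, and in the group of highest GC 1 of 86 was depleted in UV-RIP and 16 were enriched in fRIP. Protein-coding genes with 100 or more input UMIs in the same GC ranges had 28.6% of the lowest and 2.59% of the highest depleted in UV-RIP, against 41.9% and 1.16% of the members, and 0.799% and 14.7% enriched in fRIP, against 0 and 18.6%. Within the lowest GC, members with the KRAB pattern were depleted in UV-RIP in 28 of 50 cases and those without it in 8 of 36, with medians of −0.61 and −0.45. At middle GC the counts were 7 of 42 and 2 of 42, with medians of −0.43 and −0.36, and at the highest GC 0 of 10 and 1 of 76. Under TMM scaling the members depleted in UV-RIP numbered 8 at the lowest, 2 at middle and 0 at the highest GC. With a trend on transcript GC over all genes removed, 3 members stayed depleted in UV-RIP (Zfp36l1, Zfp40 and Zfp941), and the gap between the medians of members with and without the KRAB pattern narrowed from −0.29 to −0.12. Among the 196 members sharing under 10% of their windows, 23 were depleted in UV-RIP (11.7%), 13 of 64 with the KRAB pattern and 10 of 132 without it.

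Across the 256 members the UV-RIP log2 fold change ran with transcript GC, with Pearson's r and Spearman's rho both 0.70, and across 9627 protein-coding genes with 100 or more input UMIs they were 0.55 and 0.57. For fRIP the values were 0.53 and 0.49 over the members and 0.32 and 0.32 over the protein-coding genes. The genes share the same libraries and are not independent, so no p is given, and transcript GC leaves out the introns on which UMIs were also counted.

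**Figure D3:**
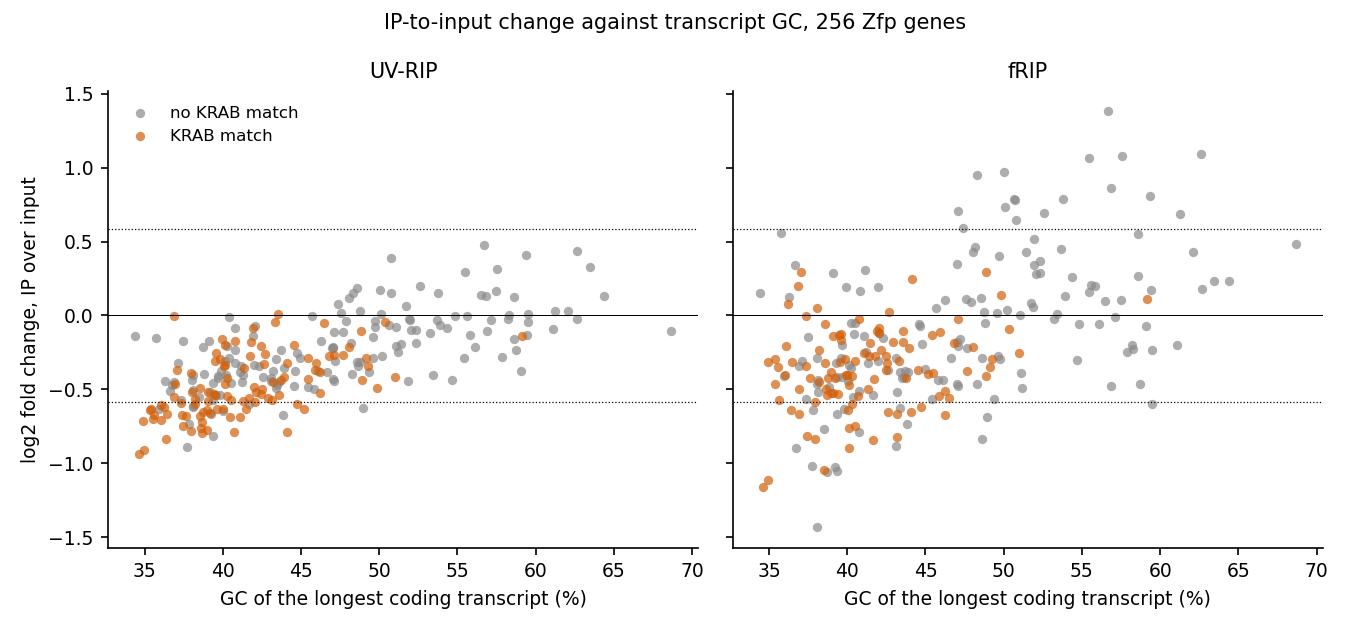
Log2 fold change of IP over input against the GC content of the longest coding transcript in percent, for UV-RIP (left) and fRIP (right); each point is 1 of the 256 Zfp genes, orange with and grey without a KRAB match, and dotted lines mark 1.5-fold. UV-RIP values climb with GC, and the points past the upper line in fRIP all lie above 47% GC.

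Depletion was uneven between genomic clusters. Runs of at least 5 members with gaps of at most 500 kb form 8 clusters with 86 members. In the cluster at chr4:145510759-147848366, from Zfp990 to Zfp933, 12 of 16 members (75.0%) were depleted in UV-RIP, with a median of −0.65, and 15 of the 16 held the KRAB pattern. The median member there shared 76.8% of its windows, so counts of single genes in it are uncertain. A cluster on chromosome 17 from Zfp160 to Zfp13 had 12 of 18 depleted (66.7%) with a median of −0.64, although its median member shared 6.59% of its windows. A second one on chromosome 17, from Zfp871 to Zfp414, had 4 of 12 (33.3%). The shares depleted in UV-RIP were 5.53% of all genes, 6.19% of the protein-coding set and 28.6% of that set in the lowest GC range. Under TMM scaling these 3 clusters had 3, 4 and 0.

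The chromosome 13 cluster (chr13:67121660-67827002, Zfp759 to Zfp273) had the opposite balance, with 1 of 10 depleted in UV-RIP and 5 of 10 in fRIP, and medians of −0.42 and −0.58. In fRIP 10.7% of all genes, 16.4% of the protein-coding set and 32.9% of that set in the lowest GC range were depleted. Its 4 members past the interaction threshold all had the higher ratio in UV-RIP, whereas 8 of 16 in the chromosome 4 cluster passed and all had the higher ratio in fRIP. The ratio was higher in UV-RIP for 8.07% of all genes and 16.8% of the protein-coding set, and higher in fRIP for 18.6% and 32.9%. On chromosome 7 the clusters had 2 of 8, 1 of 11 and 0 of 6 depleted in UV-RIP, and the cluster on chromosome 6 had 0 of 5. In clusters this small, 0 or 1 depleted member is near the 5.53% of all genes and 6.19% of the protein-coding set. Median transcript GC was 36.1% in the chromosome 4 cluster, 38.1% in the first one on chromosome 17, 39.1% in the one on chromosome 13 and 55.4% in the one on chromosome 6.

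**Figure D4:**
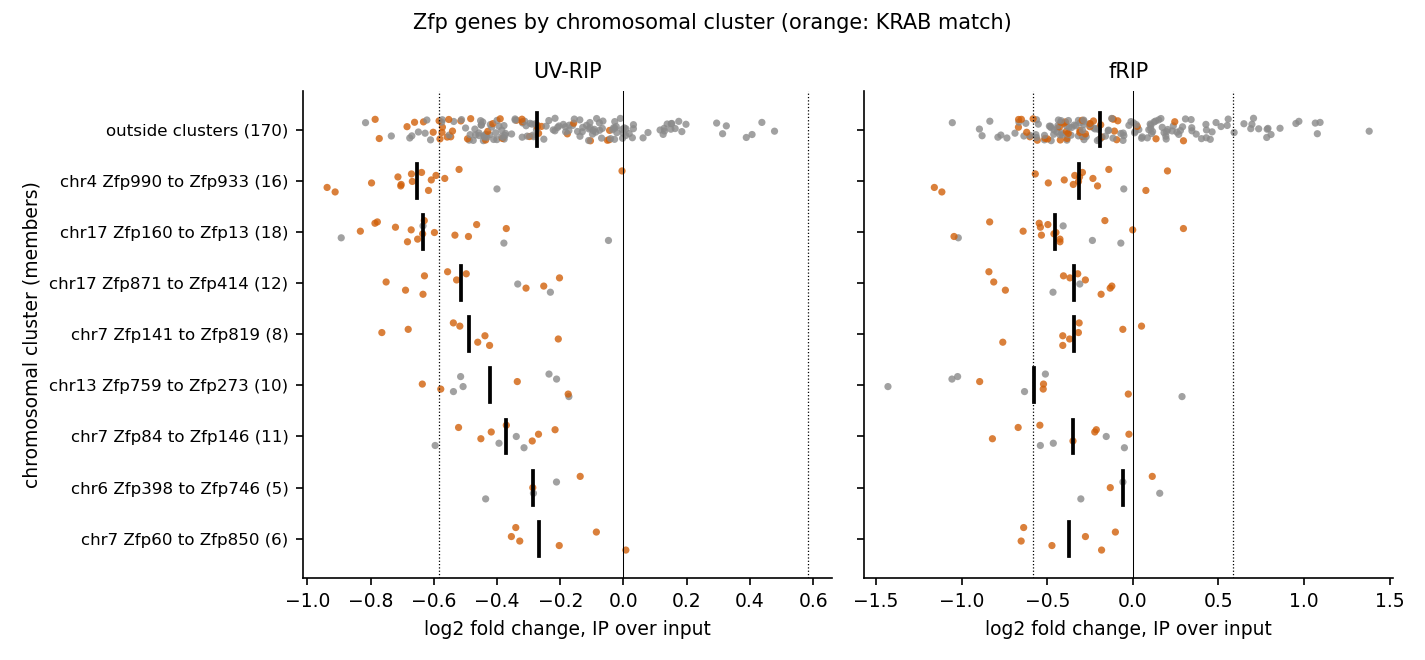
Log2 fold change of IP over input for every Zfp gene, by genomic cluster and outside clusters, in UV-RIP (left) and fRIP (right); points are genes (orange with, grey without a KRAB match), black bars are medians and dotted lines mark 1.5-fold. The clusters on chromosomes 4 and 17 have the lowest UV-RIP medians, −0.65 and −0.64, and the one on chromosome 13 the lowest fRIP median, −0.58.

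Gene length went with the difference between crosslinkers. Of the 35 members with a gene body of 50 kb or more, 11 were enriched in fRIP (31.4%) and 30 had a higher ratio in fRIP by the interaction (85.7%), and none had a higher ratio in UV-RIP. Among the 3205 protein-coding genes of that length with 100 or more input UMIs these shares were 22.8%, 66.3% and 2.68%, where genes of any length had 10.2%, 32.9% and 16.8%. In 3 groups of increasing length, 7 of 86, 16 of 85 and 53 of 85 members had the higher ratio in fRIP. Over the members the interaction ran with log length with r = 0.57 and rho = 0.53, and over the 9627 protein-coding genes with 0.66 and 0.65. With a trend on length over all genes removed, 10 members were enriched in fRIP, 9 of them among the 17, and 29 depleted, 27 of them among the 36. Among the long genes were Zfp385b (409 kb, 0.59 in fRIP), Zfp697 (371.4 kb, 0.65) and Zfp536 (301.5 kb, 0.86), all past the enrichment limit. None of these 3 passed it with the length trend removed, where their values were 0.10, 0.17 and 0.41, and Zfp385b also fell short without replicate 4 (0.46) and without replicate 5 (0.56).

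**Figure D5:**
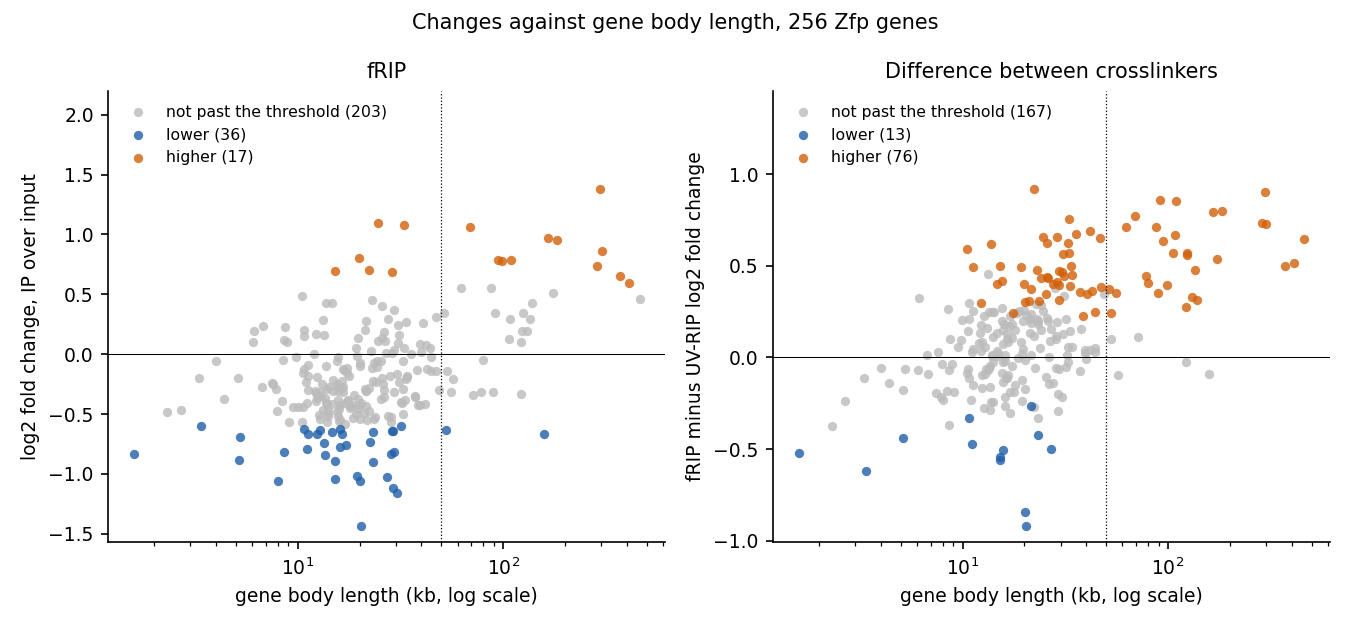
Fold change in fRIP (left) and the difference between crosslinkers, fRIP minus UV-RIP (right), both on the log2 scale, against gene body length in kb on a log axis; each point is 1 of the 256 Zfp genes, orange for higher, blue for lower and grey for not past the threshold, and the dotted line marks 50 kb. To the right of that line lie 30 of the 76 genes with a higher ratio in fRIP and none of the 13 with a higher ratio in UV-RIP.

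Gene bodies of 115 members overlap another annotated gene, 46 on the same strand and 88 on the opposite strand. Of these, 15 were enriched in fRIP (13%), near the 10.2% of protein-coding genes with 100 or more input UMIs. Of the 141 members without overlap, 2 were enriched in fRIP (1.42%, Zfp362 and Zfp423), 22 were depleted in fRIP (15.6%, near the 16.4% of the protein-coding set) and 30 were depleted in UV-RIP (21.3%, against 6.19%). Members with overlap also had longer gene bodies, with a median of 23.9 kb against 17.5 kb. Whether counting used the strand is not given in the sources used here, so UMIs of a member and of its antisense partner may not be told apart.

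Among KRAB proteins of known targets, Zfp57, which keeps imprinted loci methylated, was lower in the IP without passing 1.5-fold. It had 244, 246, 258 and 271 CPM in the UV-RIP IP against 351, 370, 355 and 365 in the input. The groups were apart, with a log2 fold change of −0.50 (adjusted p = 2.03e-36, edgeR). Zfp445, which acts at imprinted loci beside Zfp57, had −0.04 in UV-RIP (adjusted p = 0.505, 0.14 under TMM scaling) and −0.31 in fRIP (adjusted p = 2.11e-03). Zfp809, which silences murine leukaemia proviruses, was depleted in UV-RIP with −0.63 (adjusted p = 6.17e-39) and had −0.39 in fRIP. Its UV-RIP value was inside 1.5-fold under TMM scaling (−0.45), without Gm26917 and Gm42418 (−0.48), with median-of-ratios scaling (−0.46) and with the GC trend removed (−0.53). Zfp568, a repressor of a placental Igf2 transcript, gave −0.27 in UV-RIP and −0.02 in fRIP (adjusted p = 0.851).

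Members with roles in pluripotency differed from each other. Zfp281, a partner of Nanog, had 50.3, 51.8, 38.3 and 46.3 CPM in the fRIP IP against 88.1, 85.3, 80.2 and 88.4 in the input, far apart, a log2 fold change of −0.88 (adjusted p = 8.51e-09, edgeR). Its UV-RIP value was −0.44, and the interaction passed (−0.44, adjusted p = 6.61e-04). Zfp462, a large protein of heterochromatin in mESC, was higher in the fRIP IP with 0.43 (adjusted p = 1.88e-04), under the 1.5-fold limit, and had 0.12 in UV-RIP. Zfp217, a partner of the demethylase Lsd1, gave 0.06 in UV-RIP and 0.08 in fRIP (adjusted p = 0.323 and 0.433).

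A few members encode proteins that act on RNA. Zfp36l1, which binds AU-rich elements and speeds mRNA decay, had 16.6, 18.1, 17.8 and 17.4 CPM in the UV-RIP IP against 27.2, 25.6, 28.8 and 26.4 in the input. It was depleted with both crosslinkers, with log2 fold changes of −0.63 and −0.69 (adjusted p = 7.99e-20 and 3.92e-06, edgeR). Its relative Zfp36l2 had −0.000817 in UV-RIP and −0.06 in fRIP, with overlapping groups. Zfp207, which serves spindle assembly and splicing, was depleted with −0.68 and −0.74, from 424 ± 12.3 to 266 ± 8.82 CPM in UV-RIP and from 371 ± 44.8 to 223 ± 26.4 in fRIP (SD, n = 4 each). Under TMM scaling the UV-RIP values of Zfp36l1 and Zfp207, −0.45 and −0.49, were inside 1.5-fold, as they were under both other scalings, and with the length trend removed the fRIP value of Zfp36l1 was too (−0.48). Zfp598, the ubiquitin ligase that marks collided ribosomes, had −0.13 and 0.17, and Zfp346, which binds double-stranded RNA, had −0.10 and 0.37. Zfp106, which binds RNA, and Zfp638, which carries RNA recognition motifs, had −0.11 and −0.31 in UV-RIP and −0.21 and −0.33 in fRIP. The UV-RIP values of Zfp598, Zfp346 and Zfp106 were above 0 under TMM scaling, at 0.05, 0.08 and 0.07. Zfp36, the founding gene of this group, averaged 48.4 input UMIs and is not a member.

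Zfp532, Zfp592 and Zfp687 encode related proteins that bind the chromatin reader Zmynd8. Zfp532 had 491, 498, 437 and 423 CPM in the fRIP IP against 304, 223, 276 and 271 in the input, clearly separate, a log2 fold change of 0.79 (adjusted p = 5.53e-08, edgeR). Zfp592 gave 0.34 and Zfp687 0.10 in fRIP, and neither reached the limit. With the length trend removed Zfp532 was inside the limit as well (0.50). In UV-RIP the 3 had −0.07, −0.03 and 0.14, and under TMM scaling 0.11, 0.15 and 0.32. The gene bodies are of unequal size, 109.2, 51.5 and 8.86 kb in that order. Zfp521, the close relative of Zfp423, was enriched in fRIP with 0.74 (adjusted p = 3.55e-06, edgeR) and had 0.01 in UV-RIP, and its fRIP value was 0.29 with the length trend removed.

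Of the other factors with known roles, Zfp143, an activator bound at promoters, had −0.25 in UV-RIP and −0.19 in fRIP, and Zfp91, a ubiquitin ligase, had −0.34 and −0.29. Zfp148, a factor bound at GC-rich promoters, had −0.38 in UV-RIP and 0.19 in fRIP, and the interaction passed (0.57, adjusted p = 5.30e-06, edgeR). With the trend on gene length removed, its fRIP value was −0.12. Zfp410, an activator of the remodeller gene Chd4, had −0.15 and 0.01, with 0.03 in UV-RIP under TMM scaling. The members nearest the input limit were Zfp119a, depleted in UV-RIP with −0.61 (−0.43 under TMM scaling and −0.47 without replicate 4), and Zfp235 with −0.38.

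The partners of KRAB proteins were read beside the family from a list of corepressor and silencing genes, of which 21 of 22 were found by symbol. In UV-RIP 0 were enriched and 2 depleted (9.52%, against 5.53% of all genes and 6.19% of the protein-coding set), Fam208a (−0.74), a subunit of the HUSH silencing complex, and Sumo2 (−0.63), a small modifier that Trim28 attaches. In fRIP 0 were enriched and Fam208a was depleted (−0.65), 4.76% of the list against 10.7% and 16.4%. Under TMM scaling 0 of the list were depleted in UV-RIP. Trim28 had 0.09 in UV-RIP and −0.46 in fRIP, the only gene of the list with a higher ratio in UV-RIP by the interaction (−0.55, adjusted p = 3.20e-06, edgeR), and Atf7ip, Pphln1, Chaf1a and Sumo2 had the higher ratio in fRIP. Those shares were 4.76%, against 8.07% of all genes and 16.8% of the protein-coding set, and 19%, against 18.6% and 32.9%. The medians of the list were −0.30 in UV-RIP and −0.26 in fRIP, against −0.34 and −0.28 for the Zfp genes.

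Over the 16 libraries, Adap1 (r = 0.983) and Lhfpl2 (r = 0.981) were among the genes outside the family with a profile of log2 CPM most like that of Zfp423, out of 9954 compared. The 16 libraries hold 4 groups, so r mostly tracks the 4 group means. Their fRIP log2 fold changes were 0.81 and 0.92, and their gene bodies span 53.7 and 138 kb.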

How the data were processed

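RNA from Sox2 IP and input of male mESC was measured in 16 libraries, 4 for each crosslinker and fraction. The authors mapped reads with STAR (named in the submitters' processing notes, version not given in the sources used here) to mm10 and discarded reads that did not map uniquely. UMIs were counted per gene body on GENCODE vM16 with featureCounts, whose version and strand setting are not given in the sources used here. The values the authors deposited are raw counts of UMIs, not normalized, and all sample columns were used.

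The members and gene lists were chosen with earlier results of these data known. IP was compared with input by edgeR 4.0.16 (R 4.3.3; quasi-likelihood test, total UMIs as library size, replicate number as a block) for the 22936 genes that reached 3 UMIs in any of the 16 libraries. Adjusted p is by Benjamini-Hochberg over all these genes, also where the text gives it without naming the tool. Enriched or depleted meant a fold above 1.5 in either direction and an adjusted p below 0.05, and the interaction, with 8 plates as block, an adjusted p below 0.05. Same-numbered IP and input share a lysate by the methods; their deviations from group means correlated between 0.03 and 0.45 in UV-RIP and between 0.11 and 0.61 in fRIP over 10208 genes. Replicates differed by more than sampling noise (chi-square over its degrees of freedom was at least 1.72). The prior degrees of freedom were infinite in the UV-RIP fit and 20.2 in the fRIP fit, so p in UV-RIP rests on the spread shared over genes.

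Named genes were the 5 largest and 5 smallest called fold changes per crosslinker, the 3 largest interactions each way, members of known role, the 3 extremes of input level per kb each way, the 2 nearest either side of the 100 UMI limit, and the 3 genes most like Zfp423 by log2(CPM + 1), of which 1 is not reported here. Zfp335, Zfp941, Zfp39, Zfp472, Zfp81, Zfp994, Zfp280c and the members of the shared stretch were named after their values were seen, as were the groups by GC and length, the window classes and the clusters. Coordinates are from GENCODE vM21 on GRCm38 for the 220 members whose identifier and version match. Fingers, KRAB box, linkers, their GC and shared windows come from the vM21 transcript with the longest coding sequence. Transcript GC comes from the longest coding transcript, which can be a different transcript of the gene. Scripts were tested on simulated data. Alternatives were other scalings, DESeq2 1.42.0, other filters, thresholds and member sets, no block, replicates left out, and trends on length or transcript GC removed.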

Additional observations from a re-analysis of the deposited data

Results flagged for a closer look

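Of 90 groups of 4 pairs examined, 9 had 1 pair far from the other 3, where chance flags about 1 in 20. All values are log2 ratios of IP to input of single pairs. In fRIP, replicate 4 stood above the others in 7 genes. It was 1.62 in Zfp423 against 1.28 to 1.32 in the others, 1.94 in Zfp362 against 0.70 to 0.91, and 1.16 in Zfp532 against 0.64 to 0.69. In Zfp592 it was 0.75 against 0.15 to 0.24, and in Zfp57 it was −0.066 against −0.59 to −0.55. In Zfp36l1 it was −0.20 against −0.88 to −0.82, and in Zfp91 −0.081 against −0.38 to −0.33. Without replicate 4, 15 members were enriched in fRIP and 44 depleted. In fRIP replicate 5, Zfp770 had −1.64 against −0.93 to −0.84. In UV-RIP replicate 4, Zfp106 had −0.16 against −0.10 to −0.09.

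The test of the difference between crosslinkers passed for 24 of the named genes, and each value is the log2 fold change in fRIP minus that in UV-RIP. Largest were 0.92 in Zfp972, 0.90 in Zfp423, 0.86 in Zfp934 and 0.86 in Zfp532. Next came 0.79 in Zfp827, 0.77 in Zfp710, 0.76 in Zfp362, 0.73 in Zfp521, 0.73 in Zfp536 and 0.66 in Zfp787. Smaller differences were 0.57 in Zfp148, 0.52 in Zfp385b, 0.50 in Zfp697, 0.47 in Zfp346 and 0.38 in Zfp592. The smallest upward ones were 0.31 in Zfp462, 0.30 in Zfp598, 0.25 in Zfp568 and 0.24 in Zfp809. Below 0 were −0.92 in Zfp729b, −0.85 in Zfp759, −0.62 in Zfp296, −0.44 in Zfp281 and −0.26 in Zfp445.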

How the results depend on the processing

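Counts are members enriched and depleted unless said otherwise, and the cause of a move was not tested unless the alternative leaves out members or genes by construction. In UV-RIP (0 and 46, median −0.343), TMM scaling gave 3 and 10 (median −0.162), library sizes without Gm26917 and Gm42418 gave 2 and 12 (−0.189), and DESeq2 with median-of-ratios gave 2 and 11 (−0.171). Members with the higher ratio in UV-RIP (13) became 32, 33 and 26 in that order, and those with the higher ratio in fRIP (76) became 43 under the last. With the transcript GC trend removed, chosen after seeing the data, UV-RIP depletion fell to 3 (median −0.237) and fRIP (17 and 36, median −0.277) to 22 depleted (median −0.122). The medians of all genes in that setting were −0.171 and −0.026. With the length trend removed fRIP enrichment was 10. Without a fold limit the counts were 14 and 186 in UV-RIP and 42 and 135 in fRIP; with the fold of 1.5 itself tested, 11 were depleted in UV-RIP and 10 and 14 passed in fRIP. With 300 or more input UMIs (147 members) fRIP gave 9 and 17, and 6 had the higher ratio in UV-RIP. Chosen after seeing the data, the 196 members with few shared windows had 23 depleted in UV-RIP. The 141 without overlapping genes, also chosen then, had 30 depleted in UV-RIP (median −0.400), 2 and 22 in fRIP, and 33 and 7 by the interaction. Leaving out 1 replicate number gave 44 to 55 depleted and 0 enriched in UV-RIP (medians −0.374 to −0.334), 15 to 18 and 31 to 44 in fRIP (−0.285 to −0.229), 52 to 84 with the higher ratio in fRIP and 8 to 24 with the higher ratio in UV-RIP, the ends of the last being without replicate 5 and without replicate 4. Without the replicate block the counts were 0 and 46, 16 and 37, and 52 and 10, so the pairing moved no count past 1.5 times. No called member changed sign in any of these fits. Named genes near 0 did in UV-RIP: Zfp445 to 0.138 under TMM, 0.110 without the 2 ribosomal-RNA-like rows and 0.103 without the GC trend, Zfp36l2 to 0.180 under TMM, and Zfp687 to −0.018 without the GC trend. Zfp592 moved to 0.149 under TMM and 0.122 without those rows. Under TMM, without those rows and with median-of-ratios, in that order, Zfp598 moved to 0.052, 0.025 and 0.044, Zfp106 to 0.072, 0.044 and 0.063, Zfp532 to 0.115, 0.088 and 0.106, Zfp410 to 0.035, 0.008 and 0.030, and Zfp553 to 0.154, 0.126 and 0.146. In fRIP Zfp148 moved to −0.117 without the length trend. Over 43 named genes and 13 settings, 475 other UV-RIP values kept their side of the threshold, 46 fell below it and 16 rose past it; in fRIP these were 524, 24 and 10, and for the interaction 493, 50 and 16. A change of sign between values past neither threshold is not counted here. Members chosen by the inputs of the other crosslinker, or by symbols of digits alone (237), moved no count by over 1.5 times. GC of the gene body was not run. Replicates varied more in fRIP than in UV-RIP (edgeR common dispersion 0.00900 against 0.00124), so small changes are less firmly placed there.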

Other observations

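The level of the Zfp genes in the inputs differed between crosslinkers for some members, with no test, since these libraries chose the members and the crosslinkers were prepared separately. The median log2 ratio of fRIP input to UV-RIP input was −0.10 over the 256 members and 0.08 over the 9627 protein-coding genes with 100 or more input UMIs. It was above 1 in 3 members and below −1 in 3. The extremes were Zfp296 with 1.24 and Zfp972 with −1.60. Zfp36l1 was also higher in the fRIP input, 56.1 ± 10.1 against 27.0 ± 1.35 CPM, and Zfp385b lower, 7.86 ± 1.37 against 17.4 ± 1.67 (SD, n = 4 each).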
